A study of Solanum lycopersicum with 6 samples.

Results

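miR164 is a plant microRNA (miRNA) family that acts on transcripts of NAC-domain transcription factors, and its entries were followed here in green-stage fruit of tomato (Solanum lycopersicum) under reduced watering. The deposited table lists 137 mature tomato miRNAs, and 3 of them are miR164 entries, chosen by name: sly-miR164a-5p, sly-miR164a-3p and sly-miR164b-3p, written below without the species prefix. The study asked which miRNAs differ between fruit of drought-stressed plants and fruit of plants kept under the normal condition (control). From flowering onward the drought pots were given diluted liquid fertilizer a single time each week, while the control pots were given the same diluted fertilizer and plain water in turn, day by day. The supply of water and that of nutrients thus both differed between the groups, and these cannot be told apart. Each group had 3 libraries of small RNA from fruit. Nothing in the labels tells whether they came from separate plants, and no cultivar is named, so the p-values here describe the spread among libraries, which could be technical. The table holds miRNAs only, so the fruit label could not be checked against marker transcripts.

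A plant miRNA is cut as a short duplex from a hairpin precursor. A strand of the duplex, for miR164 the 5p arm, is loaded into an Argonaute protein and directs cleavage of mRNAs that match it almost completely, while the other strand, here the 3p arm, is the passenger and is mostly degraded. In Arabidopsis, miR164 restrains the organ-boundary genes CUC1 and CUC2, the auxin-linked gene NAC1 and the senescence regulator ORE1. In tomato it acts on GOBLET, the NAM-type gene that sets leaf and organ boundaries, and miR164a has been tied to fruit ripening through other NAM genes. The tomato gene table of RefSeq (assembly SLM_r2.1) holds 2 miR164 precursors, MIR164a and MIR164b. In that table MIR164a lies inside the span of a long non-coding RNA gene, LOC138338224, between the protein-coding genes LOC101244407 and LOC101260261. MIR164b has 0 genes spanning it and lies between LOC101258008 and LOC101259198. NAC transcripts were not analysed here.

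The libraries differed in depth. The listed miRNAs summed to between 430732 and 468711 counts in drought and to between 644434 and 749332 in control. Levels are therefore given as CPM, counts per 1e+06 counts of a library size scaled by TMM, a method that takes most miRNAs as unchanged between libraries. The scaling factors ran from 0.848 to 1.35 in drought, with the highest in drought library 2, and from 0.909 to 1.003 in control. In RNA from whole fruit, a smaller number of cells that hold miR164 and less miR164 per cell cannot be told apart.

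The guide arm, miR164a-5p, was lower in drought fruit than in control fruit in every library. It had 372, 859 and 641 counts in drought libraries 1 to 3, against 3356, 6771 and 7118 counts in control libraries 1 to 3. After scaling, these were 990, 1356 and 1498 CPM in drought and 5580, 10473 and 9862 CPM in control. The groups did not overlap, as was the case for 37 of the 99 tested miRNAs (37.4%, and 19.2% with drought lower), and the lowest control library stood 3.72-fold above the highest drought library. The mean was 1282 ± 262 CPM in drought and 8638 ± 2666 CPM in control (SD, n = 3 each). The log2 fold change was -2.75 ± 0.36 (SE), or a level 6.74-fold lower in drought (quasi-likelihood test of edgeR, adjusted p = 0.0009). Within a group the libraries spread less than this, with the highest 1.51 times the lowest in drought and 1.88 times the lowest in control. Control library 1 was the low library of its group, and drought library 1 was the low library of the other.

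The passenger arm, miR164a-3p, fell as well. Drought libraries 1 to 3 had 128, 127 and 199 counts, against 1054, 2595 and 2193 counts in control libraries 1 to 3. These were 341, 200.5 and 465 CPM in drought and 1752, 4014 and 3038 CPM in control, and the lowest control library stood 3.77-fold above the highest drought library. Again all drought libraries lay below all control libraries. Means were 335 ± 132 CPM in drought and 2935 ± 1134 CPM in control (SD, n = 3 each). The log2 fold change was -3.13 ± 0.46 (SE; edgeR adjusted p = 0.00201), or 8.76-fold lower in drought. The spread within a group was wider than for the 5p arm, with the highest library 2.32 times the lowest in drought and 2.29 times the lowest in control. Control library 1 was again the low control library, but among drought libraries the lowest was library 2.

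**Figure D1:**
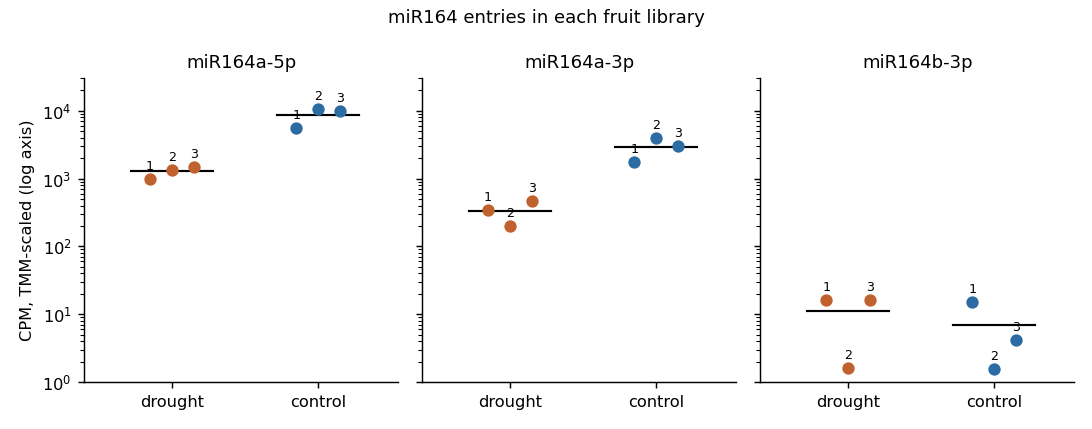
Level of each miR164 entry (CPM after TMM scaling, log axis) in each library; points are libraries, marked with their replicate number, and horizontal lines are group means. For miR164a-5p the drought points lie between 990 and 1498 CPM and the control points between 5580 and 10473 CPM, while the points of miR164b-3p overlap.

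The remaining entry, miR164b-3p, is the passenger arm of the other precursor and was close to the limit of detection. It had 6, 1 and 7 counts in drought libraries 1 to 3 and 9, 1 and 3 counts in control libraries 1 to 3, which is 14 counts in drought and 13 in control. The groups overlapped, and library 2 of each group was lowest, with 1 count. Its level was 11.3 ± 8.43 CPM in drought and 6.89 ± 7.11 CPM in control (SD, n = 3 each). The summed counts of each group, divided by its summed scaled library sizes, gave a ratio of drought over control of 1.48. Its exact 95% interval was 0.644 to 3.41 and covers counting error only. miR164b-3p did not pass the filter on low counts. In a fit without that filter its log2 fold change was 0.70 ± 0.94 (SE, edgeR adjusted p = 0.613). A difference in miR164b-3p was not detected at these low counts, and miR164b-3p is left out of the counts of tested members below. The fitted ratios of drought over control were 0.148 for miR164a-5p and 0.114 for miR164a-3p. Both lie below the interval of miR164b-3p, which leaves out the spread among libraries, and the difference between the precursors was not tested.

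miR164b-3p supplied a small part of the family. It made up 1.19%, 0.101% and 0.826% of the miR164 counts in drought libraries 1 to 3, against 0.204%, 0.0107% and 0.0322% in control libraries 1 to 3. These shares rest on 1 to 9 counts of miR164b-3p per library. The 5p arm of miR164b has no row of its own among the entries analysed here. In Arabidopsis the mature 5p sequences of miR164a and miR164b are identical, and whether the tomato 5p counts hold reads from both precursors was not tested. The whole family took 0.114%, 0.211% and 0.197% of all listed counts in drought libraries 1 to 3, and 0.668%, 1.45% and 1.24% in control libraries 1 to 3. The highest share in drought was below the lowest in control.

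Within the order of all 137 entries, miR164a moved down by many places. By count, miR164a-5p ranked 40, 34 and 34 in drought libraries 1 to 3, against 21, 16 and 16 in control libraries 1 to 3. The 3p arm ranked 60, 59 and 50 in drought and 36, 28 and 30 in control. Ranks across entries also reflect how well each miRNA end takes the adapters, so they are read here only between libraries.

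Both miR164 entries with enough counts to test passed, and both fell. Of the 99 tested miRNAs, 11 fell (11.1%) and 9 rose (9.09%) at an adjusted p under 0.05. Non-overlapping groups with drought lower were found for 19 of the 99 (19.2%). Ordered by p-value, miR164a-5p stood at place 2 and miR164a-3p at place 3 of 99. Ordered by log2 fold change from the lowest, miR164a-3p stood at place 2 and miR164a-5p at place 5. Among the 11 falls, miR164a-5p had the second highest level in control fruit, after miR159b, a regulator of GAMYB-type transcription factors, and miR164a-3p stood at place 5. The number of falls depended on single libraries, with 21 without drought replicate 2 and 5 without control replicate 2, and both miR164a arms were among the calls in each of these fits. They passed in all 6 fits that left out 1 library, with adjusted p-values of at most 0.00577 for each arm in edgeR.

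**Figure D2:**
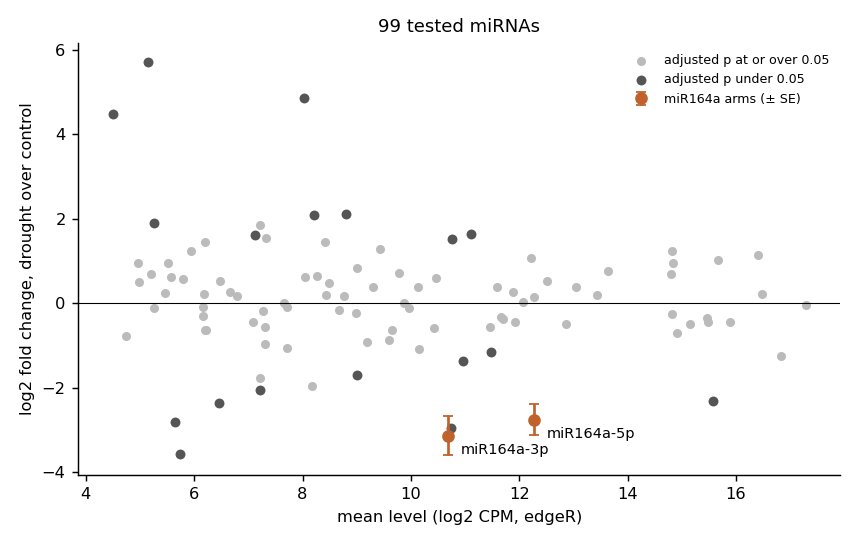
Log2 fold change of drought over control against mean level (log2 CPM) for the 99 tested miRNAs; dark points have an adjusted p under 0.05 and bars on the miR164a arms are ± SE. The arms lie at -2.75 and -3.13, among the lowest values, and are more abundant than most of the other falls.

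The arms are listed under the same precursor, so they were also summed. Whether the guide-arm counts hold reads from both precursors was not tested, so the sum may not stand for a single hairpin. The sum averaged 1617 ± 320.4 CPM in drought and 11573 ± 3756 CPM in control (SD, n = 3 each). Its log2 fold change was -2.84 ± 0.36 (SE; edgeR adjusted p = 0.00082), 7.16-fold lower in drought. In this table of 98 entries, 10.2% fell.

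The ratio of the arms asks whether guide and passenger changed by different amounts, and it needs no scaling between libraries. Guide-arm counts may include reads from the other precursor, which was not tested, so shares and ratios of the arms may not describe a single hairpin. The 3p arm supplied 25.6% of the miR164a counts in drought library 1 (95% Wilson interval 22.0 to 29.6, counting error only). It supplied 12.9% (10.9 to 15.1) in drought library 2 and 23.7% (20.9 to 26.7) in drought library 3. The control libraries 1 to 3 stood at 23.9% (22.7 to 25.2), 27.7% (26.8 to 28.6) and 23.6% (22.7 to 24.4). Drought library 2 lay below the other libraries, whose shares overlapped between the groups. The mean share was 20.7% ± 6.86 in drought and 25.1% ± 2.30 in control (SD, n = 3 each). A two-sided exact permutation test gave p = 0.5, where the smallest possible is 0.1.

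**Figure D3:**
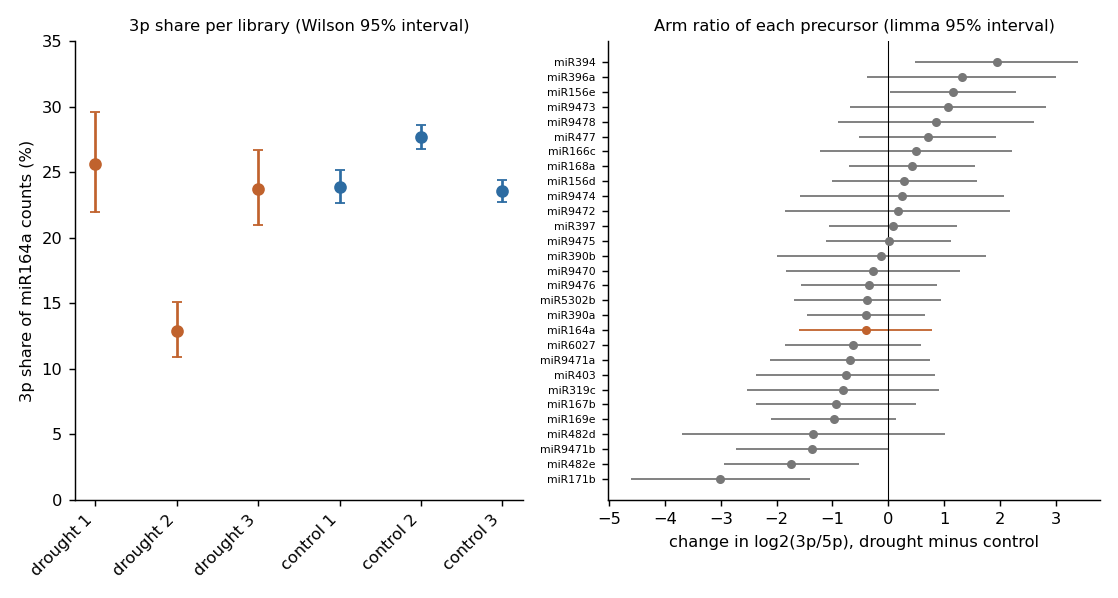
Left, the 3p share of miR164a counts (%) in each library with its 95% Wilson interval; right, the change in log2(3p/5p), drought minus control, for each of 29 precursors with its 95% limma interval, with miR164a in colour. Drought library 2 sits at 12.9%, the other libraries between 23.6% and 27.7%, and the interval of miR164a spans 0.

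On the log2 scale the ratio of 3p to 5p was -1.99 ± 0.66 in drought and -1.58 ± 0.17 in control (SD, n = 3 each). The change was -0.41 ± 0.53 (SE; limma over 29 precursors, adjusted p = 0.702), with a 95% interval from -1.60 to 0.78. A different response of the arms was not detected, and the interval leaves room for changes of up to 1.60 on the log2 scale. Without drought replicate 2 the change was -0.03 (limma adjusted p = 0.957). In this test 0 of the 29 precursors (0%) passed, while 5 had an unadjusted p under 0.05. Among the 29, miR164a was at place 19 in the size of its change. The lowest adjusted p belonged to miR171b, whose family acts on GRAS-type regulators, with -3.01 ± 0.71 (SE; limma adjusted p = 0.0608). Its 5p arm had 2, 1 and 0 counts in the control libraries, so the size of this value depends on the 0.5 added to each count, and it was -2.51 with 1 added and -1.95 with 2 added. miR171b passed with 1 added, without drought replicate 1 and without drought replicate 2 (limma adjusted p = 0.0366, 0.0162 and 0.01).

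Precursors were also read for calls of both arms. Taken singly, 20.2% of the 99 tested miRNAs passed in either direction. This share is of single entries and is not a background rate for calls of both arms. Of 32 precursors with both arms listed, 19 had both arms tested, and in 4 of these (21.1%) both arms passed in the same direction. Both arms fell for miR164a, miR156d and miR167b (15.8% of the 19), and both rose for miR9474. The call of miR156d-3p was close to the threshold (edgeR adjusted p = 0.0428). Its level was 27.7 ± 22.2 CPM in drought and 138.6 ± 67.8 CPM in control (SD, n = 3 each). With few drought counts, the miR167b arms passed the filter on low counts through their control libraries. miR9474-3p, at 1.02 CPM in control, passed it through its drought libraries, so these shares are a description only. In 14 of the 19 the arms had the same sign. In a further 4 precursors a single arm passed. One of these was miR156e, of the family that restrains SBP-box genes, where the 5p arm stood at -1.70 and the 3p arm at -0.64 on the log2 scale, and another was miR403, a regulator of an Argonaute gene, with -0.16 for the 5p arm and -1.16 for the 3p arm.

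The entries whose profile over the 6 libraries lay nearest to that of miR164a-5p were all lower in drought. Likeness was measured as the root-mean-square difference between log2 CPM profiles, each centred on its own mean, and a smaller value is more alike. The median over the other 98 tested miRNAs was 1.49. The passenger arm miR164a-3p stood at 0.44. The 5 nearest others were miR167b-5p at 0.39, miR172c at 0.46, miR156d-5p at 0.57, miR159b at 0.64 and miR167b-3p at 0.73. These distances rest on 6 libraries in 2 groups, so they reflect the difference between the groups for the most part.

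miR167 acts on auxin response factors, and miR167b-5p fell to 10.6 ± 7.41 CPM in drought, against 80.1 ± 24.4 CPM in control (SD, n = 3 each). It was far scarcer than miR164a-5p, with 2.66, 17.4 and 11.7 CPM in drought libraries 1 to 3 and 54.9, 103.6 and 81.7 CPM in control libraries 1 to 3. The drought values rest on 1, 11 and 5 counts, too few to order the drought libraries, while control library 1 was the lowest control library, as for miR164a-5p. miR172c, of the family that restrains AP2-type genes, had 31.9, 61.6 and 74.8 CPM in drought libraries 1 to 3 and 232.8, 239.7 and 227.2 CPM in control libraries 1 to 3. Its order in drought was the same as that of miR164a-5p, but control library 1 was not low. miR156d-5p had 373, 197 and 610.1 CPM in drought libraries 1 to 3 and 1910.3, 4883 and 2274 CPM in control libraries 1 to 3, the same order of libraries within each group as miR164a-3p, with library 2 lowest in drought and highest in control. miR167b-3p likewise rested on few drought counts and was at 0 in drought library 1, with 9.47 and 11.7 CPM in drought libraries 2 and 3 and 81.5, 57.2 and 131.6 CPM in control libraries 1 to 3. miR159b had 6685, 17346 and 25224 CPM in drought libraries 1 to 3 and 105868, 67219 and 72048 CPM in control libraries 1 to 3. Its order in drought was that of miR164a-5p, but control library 1 was its highest control library, not its lowest. Without control replicate 2 the calls of miR167b-5p and miR172c were lost (edgeR adjusted p = 0.056 for both).

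**Figure D4:**
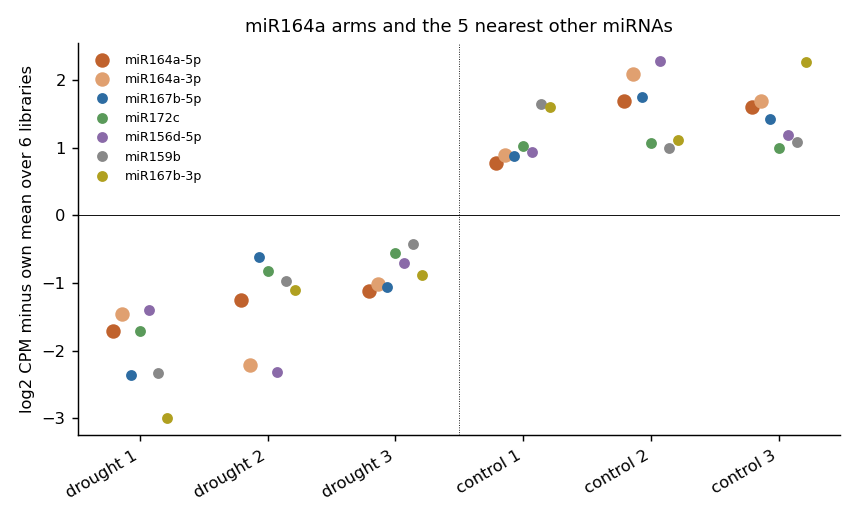
Log2 CPM minus the entry's own mean over the 6 libraries for the miR164a arms and the 5 nearest other miRNAs; each point is a library. All of these entries lie below 0 in the drought libraries and above 0 in the control libraries, and in drought library 2 miR164a-3p and miR156d-5p lie below the rest.

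Other miRNA families that act on transcription factor genes were read as a list of 31 tested entries from 10 families without miR164. Of these 8 fell and 1 rose, 29.0% of the list against 20.2% of all 99 tested miRNAs. The median log2 fold change was -0.44 in the list and 0.16 over all tested miRNAs. miR159b fell to 16418 ± 9305 CPM in drought, against 81712 ± 21059 CPM in control (SD, n = 3 each; log2 fold change -2.32 ± 0.49, edgeR adjusted p = 0.0095). miR156d-5p stood at -2.94 ± 0.53 and miR156a at -1.36 ± 0.38, both members of the family that restrains SBP-box genes, and miR156e-5p at -1.70 ± 0.42. The most abundant entry of the list, miR159, did not pass, with 158803 ± 19520 CPM in drought and 162008 ± 33191 CPM in control (SD, n = 3 each). miR156a and miR156e-5p did not pass without drought replicate 3 (edgeR adjusted p = 0.105 and 0.072), control replicate 2 (0.288 and 0.0954) or control replicate 3 (0.125 and 0.14). The rise was miR171b-5p, with 40.3 ± 21.5 CPM in drought and 1.62 ± 1.66 CPM in control (SD, n = 3 each), with 2, 1 and 0 counts in control. It passed the filter on low counts through its drought libraries, as both miR167b arms did through their control libraries, so the share of calls in the list is a description only. The count of 9 was 14 without drought replicate 2 and 4 without control replicate 2.

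NAC1, a target of miR164 in Arabidopsis, acts in auxin signalling, so families tied to auxin were read as a second list. It held 7 tested entries of miR160, miR167 and miR390, since the miR393 entry was not tested. Both arms of miR167b fell, and 0 of the 7 rose, 28.6% of the list against 20.2% of all tested miRNAs, and its median log2 fold change was 0.25 against 0.16 over all tested miRNAs. The miR167b arms are the whole count of calls in this list, and with few drought counts they passed the filter on low counts through their control libraries, so the share is a description only. miR167a, the most abundant of the 7, did not pass, with 6455 ± 3096 CPM in drought and 3055 ± 160 CPM in control (SD, n = 3 each; log2 fold change 1.08 ± 0.38, edgeR adjusted p = 0.0787). Without drought replicate 3 miR167a passed (edgeR adjusted p = 0.0237). Without control replicate 2 the count of 2 called entries was 1, and without drought replicate 3 it was 3.

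In the authors' deposited table, miR164a-5p had a log2 fold change of -2.74 and an adjusted p of 1.42e-11, and miR164a-3p had -3.15 and 2.95e-07. That table gives miR164b-3p a log2 fold change of 0.72 and an adjusted p of 0.593. The test behind these values is not named in the file, and its p-values for the miR164a arms are far smaller than those of the edgeR quasi-likelihood test, at nearly the same fold changes.

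**Figure D5:**
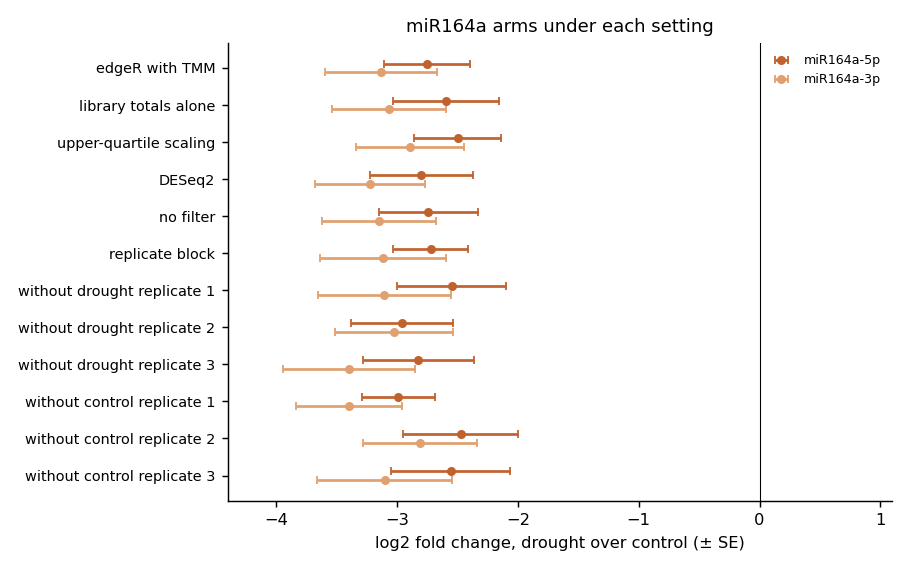
Log2 fold change of drought over control (± SE) for miR164a-5p and miR164a-3p under each processing setting. Values run from -2.99 to -2.47 for the 5p arm and from -3.40 to -2.81 for the 3p arm, all below 0.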

How the data were processed

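Small RNA libraries were made from fruit total RNA by the NEBNext Multiplex protocol for small RNA, per the labels' protocols. The authors deposited whole-number counts per mature miRNA, and, per the file headers, a CPM column per library, treated here as a signal because its divisor is not the sum of the listed counts. The same deposited table holds the authors' signed fold change (a score), log2 fold change and p-values. The sources used here do not name the trimmer, aligner, miRNA database or build. Samples were grouped by their titles.

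The test of counts was that of edgeR 4.0.16, run in R 4.3.3 (TMM, filterByExpr with minimum count 10 and minimum total count 15, robust quasi-likelihood, group as the only term), which kept 99 of 137 entries with 99.98% of counts. Benjamini-Hochberg adjustment ran over all tested entries, with a threshold of 0.05. A standard error is the log2 fold change divided by the square root of F. Arm ratios used limma 3.58.1 on log2 of 3p over 5p counts, each plus 0.5, for precursors with at least 60 counts. Alternatives were DESeq2 1.42.0, other scalings, no filter, a replicate block and leaving out each library. Profiles used log2 CPM with a prior count of 2. The edgeR and limma tests were also run on simulated data with large planted changes and less spread than in these libraries. How they perform on small changes or low counts was not tested. The Wilson and exact intervals cover counting error only, and PCR copies, which are not marked, are not accounted for. The limma intervals rest on the spread among libraries. How reads with several matching miRNAs were assigned is not stated, so near-identical members may share counts. No 2 libraries agreed within sampling noise (chi-square per degree of freedom at least 50.1).

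The entries, lists and tests were chosen with earlier results of these data known. The lists are families 156, 159, 160, 166, 167, 169, 171, 172, 319 and 396, and families 160, 167, 390 and 393. Named were all miR164 entries, the 5 nearest profiles, and miR164a in the arm-ratio test. Up to 4 called entries and the most abundant uncalled entry of each list were named as well. The entries miR171b, miR9474, miR156e, miR403 and miR156d-3p were added after their values were seen.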

Additional observations from a re-analysis of the deposited data

How the results depend on the processing

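Both miR164a arms and their sum kept their direction and stayed past the threshold in all 11 other settings. The log2 fold change of miR164a-5p ran from -2.99 to -2.47 (adjusted p from 7.73e-10 to 0.00577), that of miR164a-3p from -3.40 to -2.81 (6.31e-11 to 0.00883) and that of the sum from -3.08 to -2.61 (9.23e-11 to 0.0061). Library totals alone and upper-quartile scaling moved the median over all tested miRNAs to 0.27 and 0.40, from 0.16 with TMM, and miR164a-5p stood at -2.59 and -2.50 in these fits. They changed the split of calls to 16 rises and 11 falls, and 16 rises and 10 falls. When 1 library was left out, the arm ratio ran from -0.63 to -0.03, calls over all miRNAs from 9 to 41, calls in the transcription-factor list from 4 to 14 and in the auxin list from 1 to 3; the cause was not tested. With a replicate block 12 miRNAs passed in place of 20, and miR164a-5p stood at -2.72 (edgeR adjusted p = 0.00265). Pairing by replicate number was not seen. In their deviations from the group means, same-numbered libraries correlated at 0.101, -0.245 and 0.00813, and 1 of 3 drought libraries correlated best with its own number. With 3 libraries per group this check cannot exclude pairing. In the arm-ratio test 1 precursor, miR171b, passed with 1 added to each arm, with the replicate block (limma adjusted p = 0.00386), without drought replicate 1 and without drought replicate 2, and 0 passed in the other settings. Depth limits miR164b-3p, at 27 counts in all.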
